A study of Mus musculus with 6 samples.

Results

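Transcripts of 49 genes of the actin cytoskeleton were followed in macrophages from inflamed mouse colon, with and without gasdermin D. The genes were taken by symbol from a list of actins, actin-binding proteins, subunits and activators of the Arp2/3 complex, signalling proteins such as Rac1 and Cdc42, nonmuscle myosin II and vimentin. All 49 were found among the 17067 genes listed, and all 49 passed the filter on low levels. RNA came from cells sorted as CD45+CD11b+F4/80+ from the colon of C57BL/6 mice aged 10 weeks, in which colitis had been brought on with dextran sulfate sodium (DSS). There were 3 samples from Gsdmd-/- mice and 3 from wild-type (WT) mice, and both groups had received DSS, so no healthy colon was compared. The labels do not say how the Gsdmd-/- allele was made, or whether samples were single mice or pools, so the p-values rest on a spread between samples that may be technical.

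Actin filaments shape a macrophage, drive its crawling and pull its membrane around the particles it engulfs. Thymosins hold monomers back from filaments, while profilin carries them to growing ends. Formins add monomers to filament ends, and branches start where WASP and WAVE proteins switch on the Arp2/3 complex. WASP and WAVE proteins answer to the GTPases Cdc42 and Rac. Cofilin, gelsolin and capping proteins shorten or close filaments, myosin II makes them contract, and filamin, plastin, talin, vinculin and the ERM proteins tie them to each other and to the membrane.

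Levels are given in FPKM, fragment counts scaled to transcript length and to the mapped fragments of the library. Changes are Gsdmd-/- minus WT on the log2(FPKM + 1) scale, which understates the change of low genes, and a gene is said to have risen or fallen where its Benjamini-Hochberg adjusted p in limma's test over all genes was under 0.05. Gsdmd itself was at 28.5, 29.0 and 29.7 FPKM in Gsdmd-/- samples, against 97.7, 99.4 and 97.4 FPKM in WT samples, a ratio of 0.296. Of the markers used in the sort, Ptprc (CD45) averaged 57.9 ± 2.5 FPKM in Gsdmd-/- and 92.4 ± 4.73 FPKM in WT samples, Itgam (CD11b) 91.3 ± 4.07 FPKM in Gsdmd-/- and 176 ± 3.24 FPKM in WT samples, and Adgre1 (F4/80) 216 ± 5.67 FPKM in Gsdmd-/- and 291 ± 4.29 FPKM in WT samples (means ± SD over 3 samples a group, here and below). All 3 were present in every sample and fell. Of all 9 macrophage markers 5 fell and 3 rose (Cd68 by 0.33, Fcgr1 by 0.35 and Lyz2 by 0.13), while Cd14 was not called. With the length and GC trend removed by the longest transcript, described below, 8 of the 9 fell and Fcgr1 rose. With the median transcript Fcgr1 rose by 0.38, and Cd68 (0.04, limma adjusted p = 0.21) and Lyz2 (0.05, limma adjusted p = 0.108) did not pass. The other macrophage markers fell, Cd14 among them (-0.14). In bulk RNA, fewer cells of a type and less RNA per cell cannot be told apart.

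Of the 49 genes, 26 rose and 19 fell in Gsdmd-/- macrophages, and 4 did not pass (Arpc5, Was, Coro1c and Rhoa). That is 91.8% called, where 77.5% of all 10005 tested genes were called, 40.6% higher and 36.9% lower. The groups did not overlap for 47 of the 49 genes, beside 79.4% of all tested genes. The median log2 change was 0.19, against 0.03 over all tested genes. The median absolute log2 change was 0.41, against 0.33 over all tested genes, and only Diaph2 had an absolute change of at least 1 on this scale with an adjusted p under 0.05, which 2.95% of all tested genes had. As deposited, actins, monomer-binding proteins and capping proteins were higher in Gsdmd-/- samples, while Actr2, Actr3, the activators Wasf2 and Wipf1, Rock1, Rock2 and the membrane linkers were lower.

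The direction went with transcript length. The longest protein-coding transcript had a median of 1817 bases among the 26 genes that rose and 5267 bases among the 19 that fell, and across the 49 genes the log2 change had a Spearman correlation of -0.78 with that length. Across 9853 tested genes the same correlation was -0.652. A smooth trend of each sample on length and GC content was therefore also removed, once with the longest transcript of each gene and once with the median over its transcripts, for which the correlation across genes was -0.512. With the longest transcript 21 of the 49 genes rose and 21 fell, beside 30% of all genes higher and 31.4% lower (61.3% called). With the median transcript 20 rose and 23 fell, beside 35.5% higher and 31.8% lower (67.2% called).

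The choice of transcript changed the call of 16 of the 49 genes, Actb, Arpc1b, Tln1 and Myh9 among them. As deposited and after both removals alike, 14 of the 49 genes rose (28.6%, against 18.6% of all genes) and 12 fell (24.5%, against 20.1%). The 14 were Tmsb10, Cotl1, Cfl1, Arpc1a, Arpc2, Arpc4, Fmnl1, Capg, Arhgdib, Rac2, Myl6, Myl12a, Myl12b and Vim. The 12 were Actr2, Actr3, Wasf2, Wipf1, Vasp, Diaph2, Rock1, Rock2, Iqgap1, Vcl, Msn and Ezr. Below, each change as deposited is followed by its value after removal with the longest and then the median transcript.

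**Figure D1:**
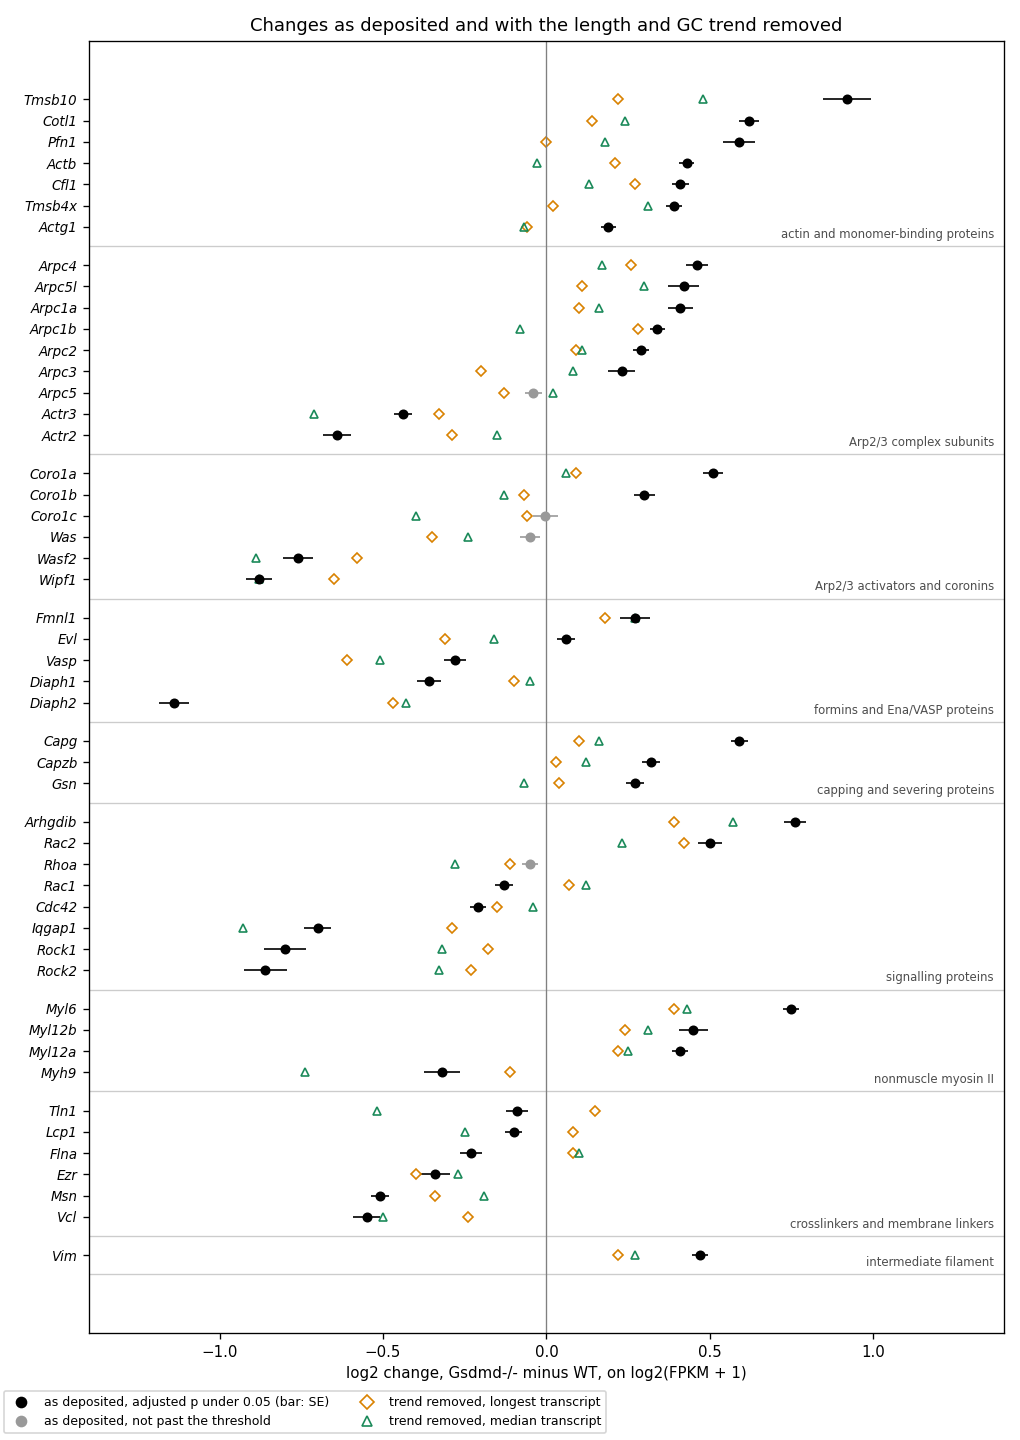
Log2 change of each of the 49 genes, Gsdmd-/- minus WT, by role: filled circles as deposited (bars are the SE of the limma fit, 3 samples a group), open diamonds after trend removal with the longest transcript and open triangles with the median transcript. Wipf1 and Wasf2 lie well below 0 on all 3 scales, while Tln1 lies at -0.09, 0.15 and -0.52.

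The split of calls also depended on how samples were scaled to each other. Rescaled to a common sum (TPM), which put the median change of all genes at -0.17 in place of 0.03, 21 of the 49 rose and 24 fell, with 23.9% of all genes higher and 49.7% lower (73.6% called). After quantile normalization 20 rose and 25 fell, with 41% of all genes higher and 36.2% lower (77.1% called). The share of calls that were rises was 57.8% as deposited, 46.7% in TPM and 44.4% after quantile normalization. The 49 genes together made up 5.63%, 5.64% and 5.57% in Gsdmd-/- samples, against 4.95%, 5.06% and 5.01% in WT samples, of the summed FPKM of all genes. This share was higher in every Gsdmd-/- sample. It needs no scaling between libraries but keeps the length trend, and the 7 actins and monomer-binding proteins hold most of it, with 19692 to 20636 FPKM in Gsdmd-/- and 13998 to 14897 FPKM in WT samples. After the removals 21 of the 49 genes rose and 21 fell, then 20 rose and 23 fell. Within groups, Gsdmd-/- replicate 3 lay nearest to the WT mean in 36 of the 45 called genes (80%, against 53% of all called genes), and WT replicate 2 nearest to the Gsdmd-/- mean in 38 of 45 (84.4%, against 52.2%).

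**Figure D2:**
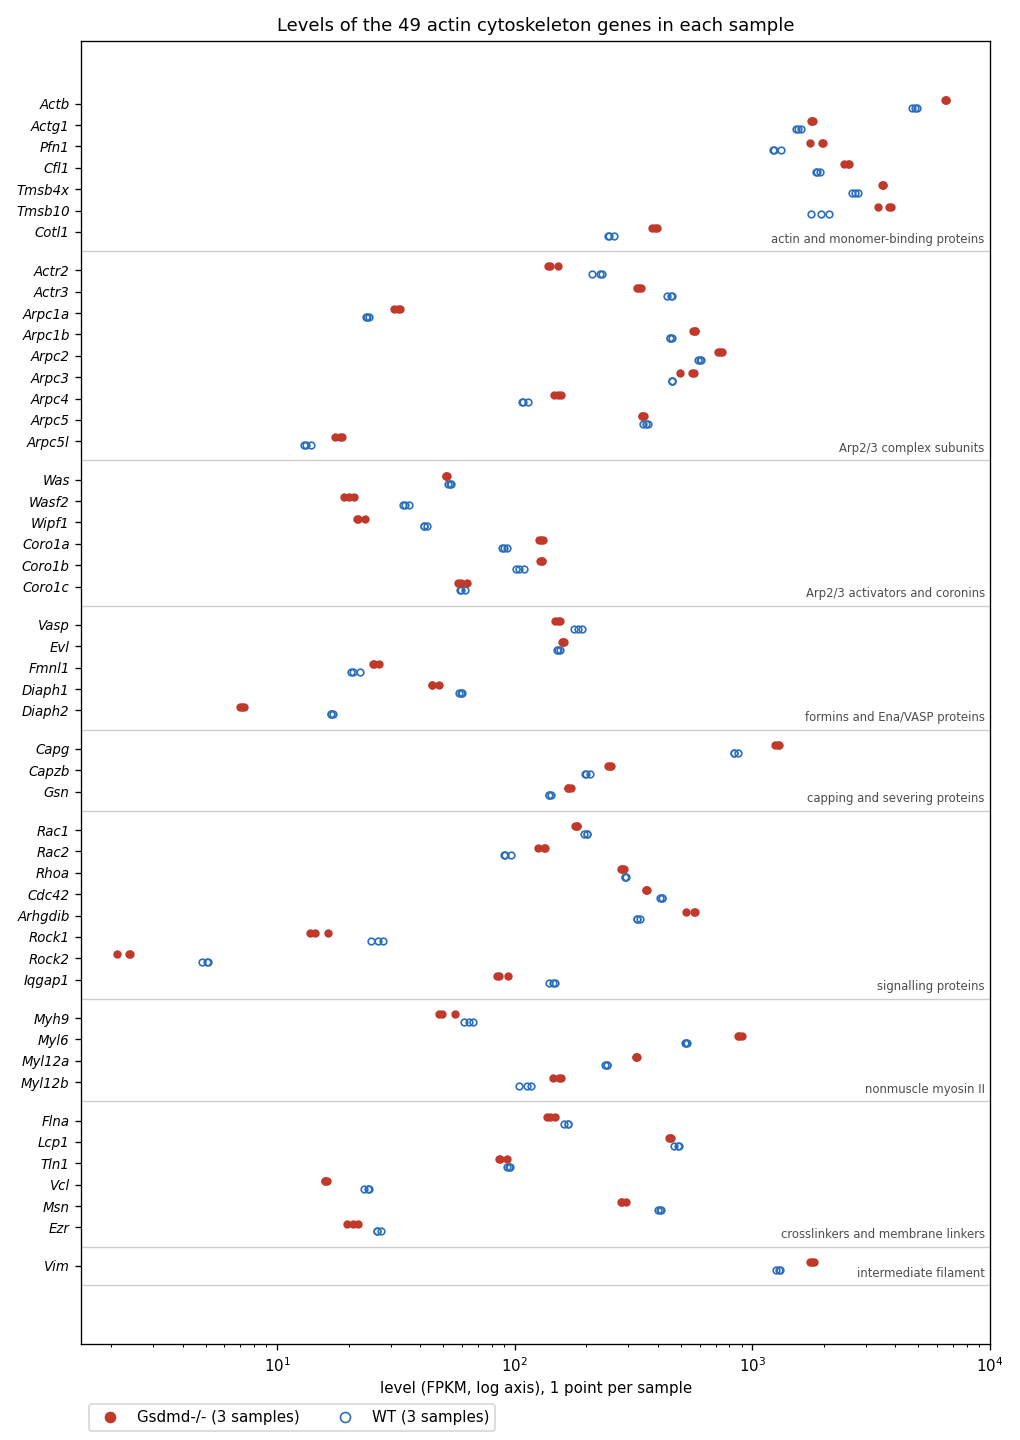
Level of each of the 49 genes in each sample, in FPKM on a log axis, by role, with filled points for 3 Gsdmd-/- samples above open points for 3 WT samples. Actb is the highest gene and Rock2 the lowest, and only Arpc5 and Coro1c have overlapping groups.

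All 7 genes grouped as actin and its monomer-binding proteins, Cotl1 among them, rose as deposited, with a median log2 change of 0.43. After the removals 4 of 7, then 5 of 7, rose. Actb, which encodes beta-actin, was at 6514, 6518 and 6438 FPKM in Gsdmd-/- samples, against 4682, 4928 and 4831 FPKM in WT samples. Every Gsdmd-/- sample was above every WT sample, a ratio of 1.35 and a log2 change of 0.43 (SE 0.0228, limma adjusted p = 1.05e-08). After the removals it was 0.21 and -0.03, the last not past the threshold (adjusted p = 0.16). Actg1, the gene of the other nonmuscle actin, was at 1786, 1801 and 1757 FPKM in Gsdmd-/- samples, against 1524, 1601 and 1557 FPKM in WT samples. Its groups did not overlap either, but its change of 0.19 (limma adjusted p = 1.66e-05) became -0.06 and -0.07 after the removals, -0.03 in TPM and -0.13 after quantile normalization, so its direction depended on the scale.

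Tmsb10 encodes thymosin beta 10, which holds actin monomers back from filaments, and had the largest rise of the 49 as deposited, though not after either removal. It was at 3757, 3839.9 and 3390.3 FPKM in Gsdmd-/- samples, against 1766, 2095 and 1945 FPKM in WT samples. The groups were far apart, with WT replicate 1 lowest, and the log2 change was 0.92 (SE 0.0732, limma adjusted p = 2.67e-05), then 0.22 and 0.48. Of its 50-base windows 43.5% also occur in other annotated transcripts, chiefly Gm9844, which the tables do not list, so its level is uncertain. Tmsb4x, the gene of thymosin beta 4, rose by 0.39 as deposited and was at 0.02 and 0.31 after the removals, the first of which did not pass.

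Cotl1, whose product binds actin filaments, was at 389.6, 396 and 378 FPKM in Gsdmd-/- samples, against 249, 262 and 248 FPKM in WT samples. It rose by 0.62 (limma adjusted p = 6.72e-09), 0.14 and 0.24, with no overlap between groups. Pfn1 encodes profilin, which carries monomers to growing ends. It was at 1966, 1985 and 1754 FPKM in Gsdmd-/- samples, against 1224, 1324 and 1233 FPKM in WT samples. It rose by 0.59 (limma adjusted p = 1.81e-06), did not pass after removal with the longest transcript (adjusted p = 0.999) and rose by 0.18 after that with the median. Cfl1, the gene of the severing protein cofilin, rose by 0.41, 0.27 and 0.13. Of the 50-base windows of Actg1 56.7% also occur in other annotated transcripts, of Cfl1 23% and of Actb 14.2%, so reads could have been split there too.

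The Arp2/3 complex joins the actin-related proteins of Actr2 and Actr3 to supporting subunits, some of them made by paired genes (Arpc1a and Arpc1b, Arpc5 and Arpc5l). Of its 9 genes 6 rose and 2 fell as deposited, with a median of 0.29, and after the removals 4 rose and 4 fell, then 4 rose and 3 fell. The genes that fell as deposited were those of the actin-related proteins. Actr2 was at 141, 138 and 152 FPKM in Gsdmd-/- samples, against 233, 212 and 229 FPKM in WT samples. Actr3 was at 333, 328 and 339.8 FPKM in Gsdmd-/- samples, against 461, 439 and 455 FPKM in WT samples. All Gsdmd-/- samples were below all WT samples for both genes.

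The log2 change of Actr2 was -0.64 (SE 0.0429, limma adjusted p = 9.9e-08), then -0.29 and -0.15. That of Actr3 was -0.44 (SE 0.0275, limma adjusted p = 4.12e-08), then -0.33 and -0.71. Together they made up 16.4%, 16% and 17.5% in Gsdmd-/- samples, against 25.7%, 24.4% and 25.3% in WT samples, of the summed FPKM of the 9 genes, a share that was chosen after their values were seen. Of the windows of Actr3 48.3% also occur in Gm8822, which the tables do not list, so its level is uncertain, whereas 0.726% of those of Actr2 are shared.

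Of the supporting subunits, Arpc4 was at 157, 152 and 146 FPKM in Gsdmd-/- samples, against 107, 113 and 109 FPKM in WT samples. It rose by 0.46 (limma adjusted p = 1.39e-07), 0.26 and 0.17, and its groups did not overlap. Of its windows 10.5% also occur in Ttll3, whose exons overlap it on the same strand. Arpc1a rose by 0.41, 0.10 and 0.16. Arpc2 rose by 0.29, 0.09 and 0.11, and was at -0.17 after quantile normalization.

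The other subunits changed direction or call with the scale. Arpc1b was at 0.34 as deposited, 0.28 and -0.08 after the removals, and 28.9% of its windows also occur in Pdap1, whose exons overlap it on the opposite strand. Whether counting used strand is not stated, so its level is uncertain. Arpc3 was at 0.23, -0.20 and 0.08, and Arpc5l at 0.42, 0.11 and 0.30. Arpc5 was at 344, 349 and 344 FPKM in Gsdmd-/- samples, against 357, 348 and 363 FPKM in WT samples, with overlapping groups (log2 change -0.04, limma adjusted p = 0.163).

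**Figure D3:**
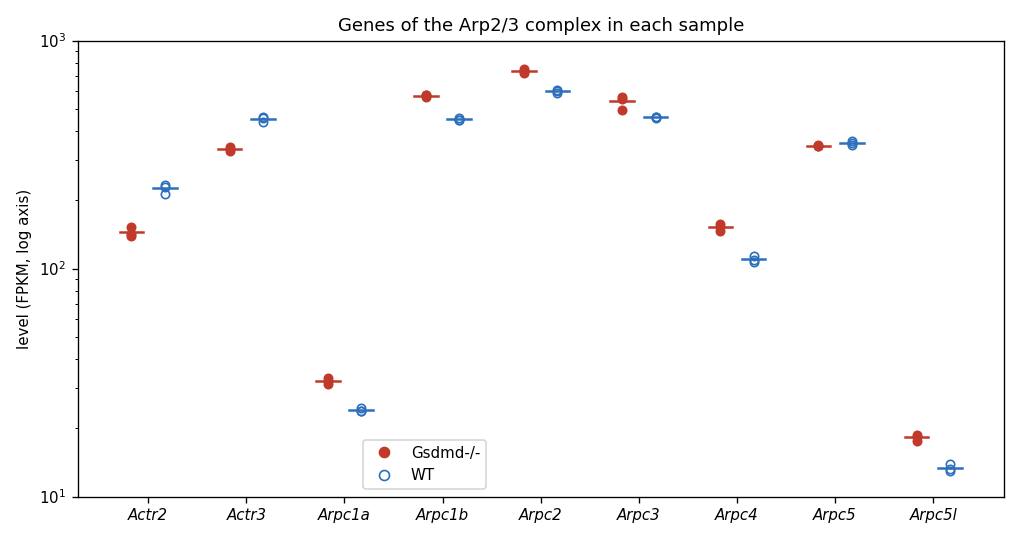
Level of the 9 Arp2/3 genes in each sample, in FPKM on a log axis, with filled points for Gsdmd-/- and open points for WT samples and lines at the group means. Actr2 and Actr3 are lower in all 3 Gsdmd-/- samples, Arpc5 overlaps, and the other 6 genes are higher as deposited.

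The activators Wipf1 and Wasf2 were lower on every scale. Wipf1 encodes WIP, which binds WASP and keeps it stable, and lies on chromosome 2 at 73429610 to 73529487 in GRCm38.p6. It was at 22.0, 21.8 and 23.4 FPKM in Gsdmd-/- samples, against 42.6, 41.6 and 41.6 FPKM in WT samples. Its log2 change was -0.88 (SE 0.0396, limma adjusted p = 3.77e-09), then -0.65 and -0.88. Wasf2 encodes WAVE2, which links Rac to the Arp2/3 complex. It was at 20.1, 19.0 and 21.1 FPKM in Gsdmd-/- samples, against 34.4, 33.7 and 36.0 FPKM in WT samples. Its log2 change was -0.76 (SE 0.0465, limma adjusted p = 3.24e-08), then -0.58 and -0.89. In both genes the highest Gsdmd-/- sample was far below the lowest WT sample, and neither transcript shares a 50-base window with another annotated gene.

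Was, the gene of WASP itself, was at 51.5, 51.9 and 51.3 FPKM in Gsdmd-/- samples, against 52.5, 53.3 and 54.0 FPKM in WT samples. The groups did not overlap but lay close together, and Was did not pass as deposited (-0.05, limma adjusted p = 0.198). It fell after both removals (-0.35 and -0.24) and in TPM (-0.27). The coronins bind filaments and act on Arp2/3 branches. Coro1a, the coronin of blood cells, was at 131, 129 and 126 FPKM in Gsdmd-/- samples, against 88.1, 92.9 and 89.7 FPKM in WT samples. It rose by 0.51 (limma adjusted p = 3.27e-08) and 0.09, and did not pass after removal with the median transcript (0.06, adjusted p = 0.0506). Coro1b was at 0.30 as deposited and -0.07 and -0.13 after the removals. Coro1c did not pass as deposited (-0.003) and overlapped between groups.

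In the WAVE complex and other nucleation-promoting factors outside the 49, 5 of 18 tested genes rose and 9 fell (median -0.12). After the removals 4 rose and 6 fell, with a median of 0.05, then 6 rose and 7 fell, with a median of 0.03. Abi1, a WAVE subunit, was at 35.6 ± 0.425 FPKM in Gsdmd-/- and 73.1 ± 0.164 FPKM in WT samples, with changes of -1.02, -0.72 and -0.62. Washc4, of the WASH complex that acts on endosomes, had changes of -1.30, -0.71 and -0.65. Brk1, the smallest WAVE subunit, rose by 0.54, 0.15 and 0.36. Hcls1, the relative of cortactin in blood cells, rose by 0.31 as deposited and did not pass with the longest transcript.

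Of the 5 formins and Ena/VASP proteins, which lengthen filaments, 3 fell and 2 rose, with a median of -0.28. Diaph2, a formin gene on chromosome X at 129749668 to 130465834, had the largest change of the 49 as deposited, though not after either removal. It was at 6.95, 7.13 and 7.28 FPKM in Gsdmd-/- samples, against 16.9, 16.8 and 17.2 FPKM in WT samples. The Gsdmd-/- level was 0.42 of the WT level, with a log2 change of -1.14 (SE 0.0465, limma adjusted p = 2.17e-09), and -0.47 and -0.43 after the removals. Its relative Diaph1 was at 44.8, 44.7 and 47.9 FPKM in Gsdmd-/- samples, against 59.8, 58.3 and 59.2 FPKM in WT samples. It had changes of -0.36 (limma adjusted p = 2.2e-06) and -0.10, and did not pass with the median transcript (-0.05, adjusted p = 0.121).

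Vasp, whose product helps filament ends grow, was at 151, 147 and 155 FPKM in Gsdmd-/- samples, against 177, 192 and 184 FPKM in WT samples. Its change was -0.28 (limma adjusted p = 1.08e-05) as deposited and larger after the removals, at -0.61 and -0.51. Its relative Evl was at 161, 158 and 160.1 FPKM in Gsdmd-/- samples, against 151, 155 and 152 FPKM in WT samples. The groups lay close together, and the rise of 0.06 (limma adjusted p = 0.0425) became -0.31 and -0.16 after the removals and -0.16 in TPM. Evl did not pass without Gsdmd-/- replicate 1 (limma adjusted p = 0.133), 2 (0.0571) or 3 (0.0574), without WT replicate 1 (0.122) or 3 (0.116), or with median ratio scaling (0.174).

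Fmnl1, a formin of blood cells, was at 25.3, 26.8 and 25.5 FPKM in Gsdmd-/- samples, against 20.5, 22.4 and 20.9 FPKM in WT samples. It rose by 0.27 (limma adjusted p = 0.000171), 0.18 and 0.27, and did not pass in TPM (0.06). In a list of 8 other genes, formins and the Ena/VASP gene Enah, 1 rose and 4 fell as deposited, and after the removals 1 rose and 3 fell, then 0 rose and 3 fell. Fmn1 had changes of -0.999, -0.39 and -0.67, and Fmnl2 of -0.78, -0.34 and -0.26. Inf2 rose by 0.21 as deposited and passed after neither removal.

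The 3 genes of capping and severing proteins rose as deposited, with a median of 0.32. Capg, a capping protein of macrophages, was at 1282, 1299 and 1246 FPKM in Gsdmd-/- samples, against 839, 872 and 833 FPKM in WT samples. It rose by 0.59 (SE 0.0263, limma adjusted p = 3.57e-09), 0.10 and 0.16, with every Gsdmd-/- sample far above every WT sample. Capzb, the beta subunit of the capping dimer, was at 254, 252 and 248 FPKM in Gsdmd-/- samples, against 197, 208 and 199.9 FPKM in WT samples. It rose by 0.32 (limma adjusted p = 7.3e-07) and 0.12 as deposited and with the median transcript, and did not pass with the longest (0.03, adjusted p = 0.33). Gsn, which encodes the severing protein gelsolin, was at 167, 168 and 173 FPKM in Gsdmd-/- samples, against 139, 143 and 139 FPKM in WT samples. Its rise of 0.27 (limma adjusted p = 2.38e-06) became 0.04 and -0.07 after the removals.

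In the list of actin turnover and capping genes outside the 49, 4 of 20 tested genes rose and 11 fell (median -0.19). After the removals 4 rose and 9 fell, with a median of -0.02, then 5 rose and 9 fell, with a median of -0.08, and in TPM 1 rose and 17 fell. Capza2, the gene of an alpha subunit that pairs with the product of Capzb, was at 180 ± 7.12 FPKM in Gsdmd-/- and 272 ± 3.4 FPKM in WT samples, with changes of -0.60, -0.37 and -0.44. Tmod3, which caps the slow-growing end, had changes of -0.81, -0.49 and -1.03. Gmfg, whose product takes Arp2/3 branches apart, rose by 0.82, 0.33 and 0.63. Twf2, the gene of a monomer-binding twinfilin, was at 0.28 as deposited and -0.19 and -0.12 after the removals.

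The signalling proteins set where filaments form and contract. Arhgdib was at 570.1, 575 and 527 FPKM in Gsdmd-/- samples, against 336, 327 and 326 FPKM in WT samples. It rose by 0.76 (SE 0.0335, limma adjusted p = 3.41e-09), 0.39 and 0.57. Rac2, the Rac of blood cells, was at 133, 134 and 125 FPKM in Gsdmd-/- samples, against 90.6, 96.2 and 90.3 FPKM in WT samples. It rose by 0.50 (SE 0.0365, limma adjusted p = 1.42e-07), 0.42 and 0.23. In both genes the groups were well apart.

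Changes of the other GTPases depended on the scale. Rac1 was at -0.13 as deposited and 0.07 and 0.12 after the removals, and its level is uncertain, since 55% of its windows also occur in Daglb on the opposite strand. Cdc42 had changes of -0.21, -0.15 and -0.04, the last not past the threshold. Rhoa did not pass as deposited (-0.05, limma adjusted p = 0.106) and had changes of -0.11 and -0.28 after the removals, both past the threshold.

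Rock1 and Rock2 encode the kinases that activate myosin II. Rock1 was at 14.4, 13.7 and 16.4 FPKM in Gsdmd-/- samples, against 27.9, 24.9 and 26.7 FPKM in WT samples. Rock2 was at 2.39, 2.12 and 2.41 FPKM in Gsdmd-/- samples, against 5.08, 4.82 and 5.10 FPKM in WT samples. Both were lower in every Gsdmd-/- sample, with the highest Gsdmd-/- value of Rock1 in replicate 3. The log2 change of Rock1 was -0.80 (limma adjusted p = 3.72e-07), then -0.18 and -0.32, and that of Rock2 was -0.86 (limma adjusted p = 1.79e-07), then -0.23 and -0.33. Iqgap1, the gene of a scaffold that binds Cdc42 and Rac1, had changes of -0.70, -0.29 and -0.93.

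**Figure D4:**
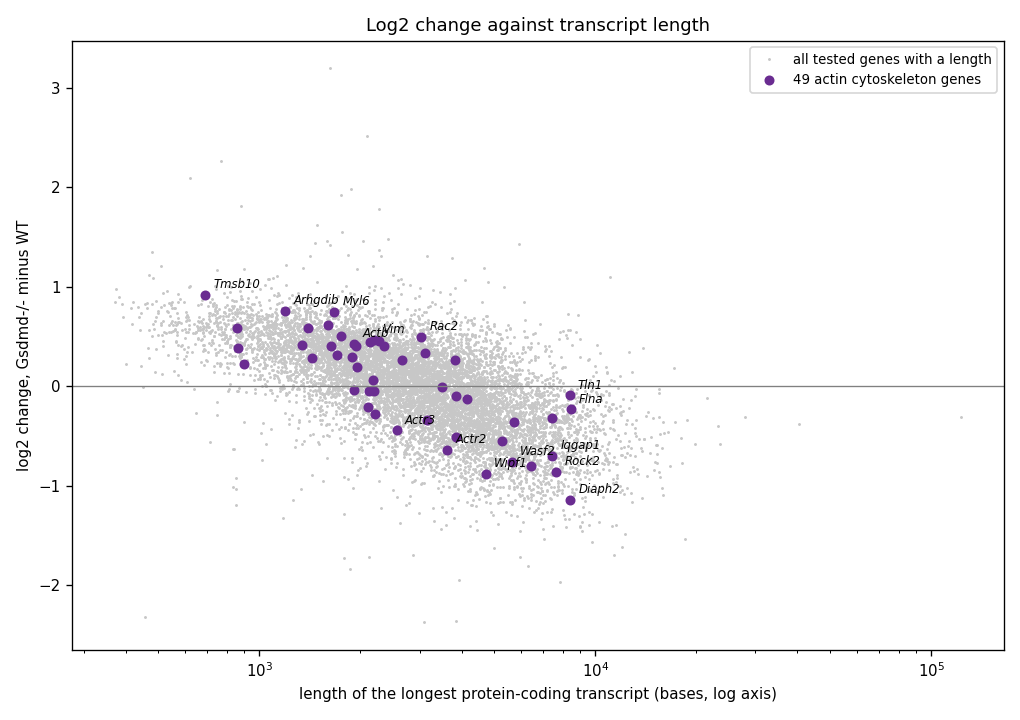
Log2 change, Gsdmd-/- minus WT, as deposited against the length of the longest protein-coding transcript in bases (log axis), with all tested genes in grey and the 49 actin cytoskeleton genes in purple. Changes run from positive for short to negative for long transcripts in both, with Tmsb10 at 690 bases and 0.92 and Diaph2 at 8439 bases and -1.14.

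The light and heavy chains of nonmuscle myosin II moved apart as deposited, 3 genes up and 1 down. Myl6, the gene of the essential light chain, was at 903, 876 and 871 FPKM in Gsdmd-/- samples, against 527, 530.2 and 519 FPKM in WT samples. It rose by 0.75 (SE 0.0244, limma adjusted p = 6.17e-10), 0.39 and 0.43, and the groups were far apart. Of its windows 18.5% also occur in other transcripts. Myl12a, the gene of a regulatory light chain, was at 323, 326 and 323 FPKM in Gsdmd-/- samples, against 239.8, 245 and 244 FPKM in WT samples. Its neighbour Myl12b was at 156, 154 and 145 FPKM in Gsdmd-/- samples, against 104, 117 and 113 FPKM in WT samples. Myl12a rose by 0.41 (limma adjusted p = 2.58e-08), 0.22 and 0.25, and Myl12b by 0.45 (limma adjusted p = 2.24e-06), 0.24 and 0.31. They share sequence, 29.2% of the windows of Myl12a, so the split of reads between them is uncertain.

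Myh9, the gene of the heavy chain, was at 49.2, 48.1 and 56.0 FPKM in Gsdmd-/- samples, against 66.5, 61.0 and 64.3 FPKM in WT samples. Its change was -0.32 (limma adjusted p = 0.000253), -0.11 with the longest transcript, which did not pass (adjusted p = 0.052), and -0.74 with the median. Of the myosins and tropomyosins outside the 49, 6 of 15 tested genes rose and 8 fell (median -0.14). After the removals 7 rose and 4 fell, with a median of 0.08, then 4 rose and 5 fell, with a median of 0.01, and in TPM 2 rose and 10 fell. Ppp1r12a, the gene of the targeting subunit of myosin phosphatase, had changes of -0.83, -0.39 and -0.53, and Myo1c, the gene of a membrane myosin, of -0.45, -0.40 and -0.32. Tpm3, the gene of a tropomyosin, rose by 0.20 and 0.12 and did not pass with the median transcript. Tpm2, also a marker of smooth muscle, was at 3.17, 2.70 and 2.19 FPKM in Gsdmd-/- samples, against 0.60, 0.61 and 0.54 FPKM in WT samples, and rose by 1.21, 0.93 and 0.90. It passed the filter on low levels through the Gsdmd-/- samples alone.

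All 6 crosslinkers and membrane linkers fell as deposited, with a median of -0.28. After the removals 3 rose and 3 fell, then 1 rose and 5 fell. Vcl encodes vinculin, which strengthens adhesion sites. It was at 16.2, 15.9 and 15.9 FPKM in Gsdmd-/- samples, against 24.0, 23.2 and 24.3 FPKM in WT samples. Its log2 change was -0.55 (limma adjusted p = 1.59e-07), then -0.24 and -0.50. The level of Vcl is uncertain, since 39.2% of its windows also occur in Ap3m1 on the opposite strand.

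Msn and Ezr encode moesin and ezrin, ERM proteins that link filaments to the membrane. Msn was at 283, 279.6 and 293 FPKM in Gsdmd-/- samples, against 409, 401 and 412 FPKM in WT samples. Ezr was at 21.9, 19.7 and 20.9 FPKM in Gsdmd-/- samples, against 26.3, 26.2 and 27.3 FPKM in WT samples. In both genes every Gsdmd-/- sample was below every WT sample. The log2 change of Msn was -0.51 (limma adjusted p = 1.04e-08), then -0.34 and -0.19, and that of Ezr was -0.34 (limma adjusted p = 2.77e-05), then -0.40 and -0.27.

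Flna, Lcp1 and Tln1 encode filamin A, the plastin of leukocytes and talin. Flna was at -0.23 as deposited and 0.08 and 0.10 after the removals, past the threshold on all 3 scales and in the other direction on the last 2. Lcp1 was at -0.10, 0.08 and -0.25, and Tln1 at -0.09, 0.15 and -0.52, so their direction depended on which transcript was used. Tln1 did not pass as deposited without Gsdmd-/- replicate 1 (limma adjusted p = 0.104) or 2 (0.125), without WT replicate 1 (0.0877) or 3 (0.0712), or with no filter (0.0615).

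Among 29 tested crosslinkers and adhesion linkers outside the 49, 13 rose and 12 fell as deposited. After the removals 8 rose and 12 fell, then 12 rose and 12 fell, with 8 up and 17 down in TPM and 10 up and 15 down after quantile normalization. Lsp1, the gene of an actin-binding protein of leukocytes, was at 205 ± 6.21 FPKM in Gsdmd-/- and 107 ± 3.3 FPKM in WT samples and rose by 0.93, 0.64 and 0.69. Cnn2, a calponin gene, rose by 0.87, 0.68 and 0.58. Marcks, whose product ties actin to the membrane, had changes of -0.68, -0.41 and -0.27, and Lims1, an adhesion adaptor, of -0.83, -0.40 and -0.80.

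Vim, which encodes the intermediate filament protein vimentin, was at 1775, 1813 and 1745 FPKM in Gsdmd-/- samples, against 1255, 1310.0 and 1295 FPKM in WT samples. It rose by 0.47 (SE 0.025, limma adjusted p = 1.16e-08), 0.22 and 0.27, with no overlap between groups. Vim, Gsn and Actb are also expressed by cells outside the sorting gate. A marker could enter the test on its Gsdmd-/- level alone, which favours a rise. Of 11 fibroblast markers 7 were tested and all 7 rose, with the 11 summing to 61.6 to 63.6 FPKM in Gsdmd-/- and 24.1 to 26.0 FPKM in WT samples. In 1 of the 7, Col3a1, not all WT samples reached 1 FPKM. Of 10 smooth muscle markers 4 were tested and rose, but in 3 of these (Tagln, Tpm2 and Myl9) not all WT samples reached 1 FPKM, so that only Acta2 passed the filter on its WT level. The 10 had a sum of 16.3 to 17.8 FPKM in Gsdmd-/- and 3.02 to 5.47 FPKM in WT samples. The defining marker Acta2 averaged 7.67 ± 0.516 FPKM in Gsdmd-/- and 2.2 ± 0.677 FPKM in WT samples, while Des and Cnn1 were at 0.07 FPKM or less in Gsdmd-/- and listed at 0 in all WT samples. Of 5 platelet markers, 2 were tested and rose as deposited, with a sum of 317 to 330 FPKM in Gsdmd-/- and 212 to 230 FPKM in WT samples. Most of the sum was Pf4, at 316 ± 6.21 FPKM in Gsdmd-/- and 214 ± 10.3 FPKM in WT samples. The sum thus rests mostly on 1 gene and is no measure of platelet content. The change of Pf4 was 0.56 as deposited, 0.03 with the longest transcript, which did not pass (limma adjusted p = 0.332), and 0.27 with the median. No marker of these 3 lists was at 0 in all 6 samples. Other lists did not all go this way. Of 3 tested endothelial markers 0 rose and 1 fell as deposited. The 8 listed summed to 35.3 to 40.1 FPKM in Gsdmd-/- and 63 to 67.2 FPKM in WT samples. Most of this sum was also 1 gene, Kdr, at 26.2 ± 2.3 FPKM in Gsdmd-/- and 56.4 ± 1.59 FPKM in WT samples. After removal with the longest transcript 2 of the 3 rose and 1 fell. With the median transcript Kdr (-0.67) and Vwf (-0.15) fell and Cdh5 did not pass. The 1 tested epithelial marker fell. All 3 tested neutrophil markers rose, 2 of 3 T cell markers rose and 1 fell, and 1 of 2 dendritic cell markers rose. No B and plasma cell marker was tested. The part of such cells in the changes of the 49 genes was not tested.

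Shares within related genes need no scaling between libraries but keep the length and GC trend. They are given as a description, without a test. Sequence shared with other transcripts, given above, makes the shares that involve Rac1, Tmsb10, Actg1, Arpc1b or Myl12a uncertain. Rac2 made up 42.1%, 42.6% and 40.6% in Gsdmd-/- samples, against 31.1%, 32.4% and 31.6% in WT samples, of the summed FPKM of Rac2 and Rac1. Tmsb10 made up 51.6%, 51.9% and 48.9% in Gsdmd-/- samples, against 39.5%, 43.1% and 42.6% in WT samples, of both thymosins. Diaph2 made up 13.4%, 13.7% and 13.2% in Gsdmd-/- samples, against 22%, 22.4% and 22.5% in WT samples, of itself and Diaph1. In these pairs the groups did not overlap.

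Smaller shifts were seen elsewhere. Actb made up 78.5%, 78.3% and 78.6% in Gsdmd-/- samples, against 75.4%, 75.5% and 75.6% in WT samples, of both actins. Coro1a made up 40.8%, 40.7% and 39.9% in Gsdmd-/- samples, against 34.7%, 35.6% and 35.9% in WT samples, of the 3 coronins. These groups did not overlap, nor did those of Arpc5l, at 5% ± 0.187 in Gsdmd-/- and 3.62% ± 0.155 in WT samples of its pair, or Rock2, at 13.5% ± 0.733 in Gsdmd-/- and 15.9% ± 0.431 in WT samples of itself and Rock1. The groups overlapped for Arpc1b, at 94.7% ± 0.164 in Gsdmd-/- and 95% ± 0.113 in WT samples of its pair, and for Myl12b, at 31.9% ± 0.822 in Gsdmd-/- and 31.4% ± 1.06 in WT samples.

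**Figure D5:**
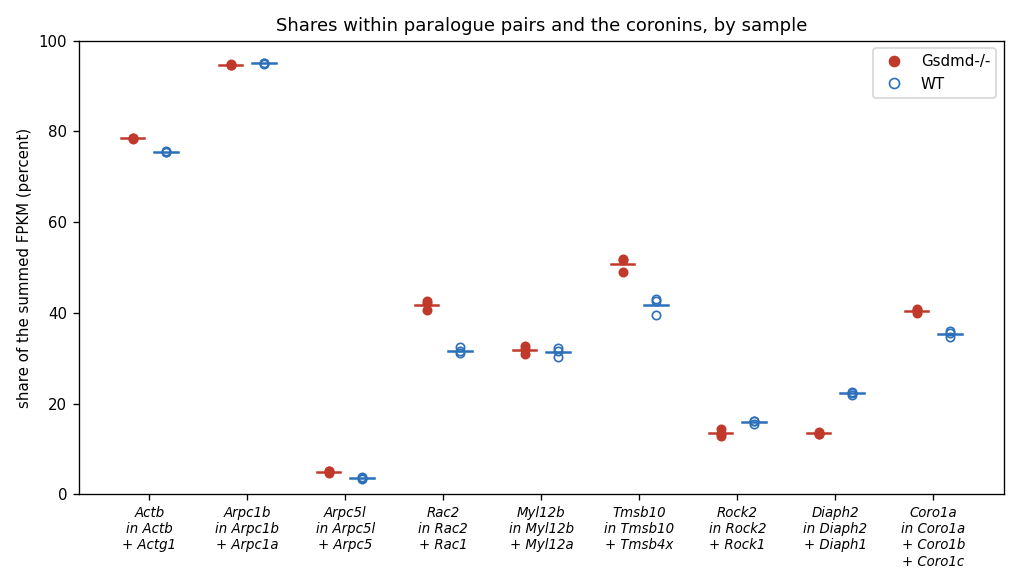
Share of 1 gene in the summed FPKM of a pair of paralogues, or of Coro1a in the 3 coronins, in percent, with filled points for 3 Gsdmd-/- and open points for 3 WT samples and lines at the group means. Rac2 and Tmsb10 take larger shares in Gsdmd-/- samples and Diaph2 a smaller one, while Arpc1b and Myl12b overlap.

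Many actin genes are controlled by serum response factor (SRF), which binds the CArG box and whose coactivators respond to free actin monomers. RefSeq windows on GRCm38.p6, from 250 bases before to 50 after an annotated start, were found for 41 of the 49 genes, and 4 of these 41 (9.76%) held a CArG box, against 1.81% of 27025 genes. The pattern is the same on both strands, so 1 search covers both. The 4 stretches are shown because they hold the matches, on the strand of the gene, with the box in capitals. They are chr11:120348531-120348630 (minus strand, Actg1), chr10:128493005-128493104 (minus strand, Myl6), chr14:20929148-20929225 (plus strand, Vcl) and chr6:113377863-113377917 (plus strand, Arpc4). The window of Myl6 belongs to a start inside the annotated gene.
Actg1: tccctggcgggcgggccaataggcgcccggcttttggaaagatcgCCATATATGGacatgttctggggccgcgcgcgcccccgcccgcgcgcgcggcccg
Myl6: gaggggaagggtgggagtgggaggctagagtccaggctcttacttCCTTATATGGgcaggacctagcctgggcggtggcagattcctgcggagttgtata
Vcl: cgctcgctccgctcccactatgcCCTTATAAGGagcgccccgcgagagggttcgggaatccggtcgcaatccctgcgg
Arpc4: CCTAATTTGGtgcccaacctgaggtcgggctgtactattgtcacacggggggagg

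A match is a description of the sequence and not evidence of binding. Of the 4 genes, Myl6 and Arpc4 rose and Vcl fell on all 3 scales, while Actg1 changed direction. Srf was at 7.22 ± 0.316 FPKM in Gsdmd-/- and 5.63 ± 0.345 FPKM in WT samples. It rose by 0.31 (limma adjusted p = 0.000556) as deposited and passed after neither removal (-0.01 and -0.10). Mkl2, the gene of a coactivator of SRF, was at 1.35 ± 0.187 FPKM in Gsdmd-/- and 2.13 ± 0.11 FPKM in WT samples, with changes of -0.42, 0.0047 and -0.22, the second of which did not pass. Mkl1, the gene of a more abundant coactivator, was at 10.4 ± 0.605 FPKM in Gsdmd-/- and 9.57 ± 0.322 FPKM in WT samples. It did not pass as deposited (0.11, limma adjusted p = 0.0964) or after either removal (0.08 and 0.13).

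Microtubule genes, of the other main filament system, were mostly higher. Of 17 tested genes 13 rose and 4 fell as deposited, with a median of 0.48. After the removals 9 rose and 2 fell, with a median of 0.12, then 14 rose and 2 fell, with a median of 0.26. Tubb5, a beta-tubulin gene, was at 234 ± 5.29 FPKM in Gsdmd-/- and 154 ± 4.71 FPKM in WT samples and rose by 0.60, 0.49 and 0.48. Tuba1b, an alpha-tubulin gene, rose by 0.48, 0.11 and 0.23. The microtubule-binding proteins Map4 and Clip1 were lower, with changes of -0.37, -0.14 and -0.31 for Map4 and -0.56, -0.22 and -0.24 for Clip1. Over all 143 tested genes of these lists outside the 49, 50 rose and 67 fell. That is 81.8% called, beside 77.5% of all tested genes, 40.6% higher and 36.9% lower. After the removals 42 rose and 53 fell, beside 30% and 31.4% of all genes, then 50 rose and 58 fell, beside 35.5% and 31.8%. In TPM 33 rose and 90 fell, with 23.9% of all genes higher and 49.7% lower.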

How the data were processed

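RNA of 6 samples was sequenced on the BGISEQ-500, per the labels' protocols. Per the submitters' processing notes, Bowtie2 2.2.5 and GRCm38.p6 were used. How alignments became gene values, with which annotation and strand setting, is not given in the sources used here. All deposited values carry no unit in the file headers and were read as FPKM, because sums differ between samples and low values scale with transcript length. Depth is not given, and the smallest values put it at roughly 15600000 to 16800000 fragments in Gsdmd-/- and 15700000 to 17600000 in WT samples. Within groups, samples correlated at 0.997 to 0.998, and at 10 FPKM or more at most 0.376% of values were identical between 2 samples.

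Genes that reached 1 FPKM in 3 or more of the 6 samples (10005 of 17067) were tested on log2(FPKM + 1) with limma 3.58.1 in R 4.3.3 (trend, robust), with Benjamini-Hochberg adjustment over all of them and no covariate. With 3 samples a group, the smallest two-sided p of an exact permutation test is 0.1. The code was tested on simulated data. For the trend removal, natural splines with 5 degrees of freedom on log2 length and GC content of GENCODE M21 protein-coding transcripts were fitted to each sample's deviation from the gene mean, for the 9853 tested genes (98.5%) with both. The median over a gene's transcripts was tried first (correlation of change with length -0.512), and the longest transcript (-0.652) was adopted after that result was seen, so both are reported.

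Sequence sharing was counted over all 50-base windows of the longest transcript. Values per sample are given for Actb, Actg1 and, in each role group, the 3 called genes with the largest change and any called against the majority, and up to 2 genes with the smallest p in each direction are named from the other lists. Other genes given per sample (Arpc5, Was and Tpm2) were chosen after their values were seen, as was Mkl1. Counts over the signalling genes and a list of genes related to them are not reported here. The members, lists and tests were chosen with earlier results of these data known.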

Additional observations from a re-analysis of the deposited data

How the results depend on the processing

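Under every setting tried, 12 of the 49 genes rose and 12 fell: the 14 and 12 named in the report, without Arpc2 and Fmnl1. The same count was not made over all genes, so whether these shares differ from the background is not known. Pseudocounts of 0.1 and 0.01, both filters, median ratio scaling and leaving out 1 sample kept the counts at 25 to 26 higher and 18 to 21 lower.

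In TPM, 2575 genes rose, against 4059 as deposited, and 33 related genes, against 50. Values that changed sign in TPM were Actg1 (-0.03) and Evl (-0.16), and after quantile normalization Actg1 (-0.13), Tmsb4x (-0.0014), Arpc2 (-0.17), Arpc3 (-0.09) and Evl (-0.06). With the trend on the longest transcript removed they were Actg1 (-0.06), Pfn1 (-5.8e-05), Arpc3 (-0.20), Coro1b (-0.07), Evl (-0.31), Rac1 (0.07), Flna (0.08), Lcp1 (0.08) and Tln1 (0.15), with the same values under the replicate block. With the median transcript, tried before the longest was adopted, they were Actb (-0.03), Actg1 (-0.07), Arpc1b (-0.08), Arpc5 (0.02), Coro1b (-0.13), Evl (-0.16), Gsn (-0.07), Rac1 (0.12) and Flna (0.10). Of the 49 calls, 33 were the same with either transcript. The cause was not tested.

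Coro1c, not past the threshold, ranged from -0.04 to 0.02 when 1 sample was left out, above 0 without Gsdmd-/- replicate 1 (0.0037) or 2 (0.02) or WT replicate 1 (0.02). As shares of fragments (values multiplied by length), the differences were 0.99 points for Arpc5l, 9.11 for Rac2 and -11.1 for Diaph2, against 1.38, 10.1 and -8.83. The share of Myl12b differed by -0.0569 to 0.983 points when 1 sample was left out, and was -0.0569 without WT replicate 1.

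Samples of the same replicate number did not deviate together (correlations -0.08, 0.13 and 0.01), so the numbers were not taken as pairs. With the replicate block 25 of the 49 genes rose and 19 fell, Evl being lost (limma adjusted p = 0.0526), and 4095 of all genes rose and 3706 fell.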
